A study of Caenorhabditis elegans with 18 samples.

Results

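The response of Caenorhabditis elegans larvae with a truncated heat shock factor to 30 min at 34 °C was followed in 6 of the 18 libraries of the series, 3 from hsf-1(sy441) larvae kept at 20 °C and 3 from hsf-1(sy441) larvae after the heat shock. They are all the libraries that the labels place in strain PS3551, hsf-1(sy441), and no measured value entered the choice. RNA came from whole, synchronized larvae in the middle of the second larval stage, raised on plates with OP50 bacteria, and the polyadenylated fraction was sequenced. Heat shock was given by submerging sealed plates in a water bath, and larvae at 20 °C served as the control of their own strain. The mutant's response is set beside that of 6 libraries of the wild type N2 and 6 of strain AM1062, in the same design of 3 libraries at each temperature. AM1062 carries the insertion rmSi1 on chromosome II, an hsf-1::gfp transgene, together with hsf-1(sy441) and the allele ed9 of unc-119 on chromosome III. The transgene strain shares the sy441 allele with the mutant and differs from it also by its unc-119 allele. Whether replicates were grown as separate cultures is not in the labels. P-values therefore cover the spread between the sequenced libraries only, which may be technical. Whole animals were sampled, so fewer cells of a type and less RNA per cell cannot be told apart in any value given here.

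HSF-1 is the transcription factor that binds heat shock elements when proteins unfold and switches on the genes of inducible chaperones, among them the small heat shock proteins of the hsp-16 family and hsp-70. The sy441 allele introduces a premature stop that removes the end of the protein with its transactivation domain and leaves the DNA-binding and trimerization domains. Besides the chaperones of the cytosol, worms carry separate folding systems in the mitochondria and the endoplasmic reticulum, each with its own stress response.

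The 6 mutant libraries held 23.6 to 34.7 M fragments, and all 18 held 16 to 34.7 M. Of the 14219 genes tested with edgeR's quasi-likelihood test, 2247 were called higher and 2246 lower after heat shock at a Benjamini-Hochberg adjusted p of 0.05, which is 15.8% and 15.8% of the genes. Among them, 490 rose and 817 fell by at least 2-fold, 238 rose and 111 fell by at least 4-fold, and 129 rose and 15 fell by at least 8-fold. The libraries of the 2 temperatures did not overlap for 7231 genes, 50.9% of those tested. These directions are relative to a scaling with TMM factors, under which the tested genes had a median log2 fold change of 0.05. Scaling to total fragments moved that median to −0.29, a shift of −0.34, and called 655 genes higher and 4823 lower. Changes are reported relative to the TMM scaling, and the counts and medians of a list under total fragments stand beside it where its median turns or its balance of calls moves. The 2247 and 2246 calls and, unless another fit is named, every adjusted p come from a fit that does not pair the libraries. Same-numbered mutant libraries deviated together across temperatures, although the numbers do not tell replicates 1 and 2 apart. An alternative model with the replicate number as a block called 6626 genes, 3403 higher and 3223 lower. Replicate 3 stood apart in genes of the moulting cycle at both temperatures, with a summed level of 58 moulting genes of 10070.0, 7538 and 4822 CPM at 20 °C and 9442, 9815 and 3906 CPM at 34 °C. The level of hsf-1 itself was 92.9, 98.3 and 103 at 20 °C and 84.8, 92.3 and 98.7 CPM at 34 °C and was not called changed (log2 fold change −0.09, SE 0.09, adjusted p = 0.49).

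The inducible heat shock proteins rose in the mutant from very low levels, and after heat shock their means stayed under those of N2. The small heat shock gene hsp-16.2, whose product holds unfolded proteins in solution, was at 1.25, 0.886 and 1.43 at 20 °C and 172, 169 and 224 CPM at 34 °C. Its divergent neighbour hsp-16.41 was at 1.81, 1.83 and 2.1 at 20 °C and 209, 194 and 306 CPM at 34 °C. The temperatures were far apart for hsp-16.2 (log2 fold change 7.30, SE 1.18, adjusted p = 3.7e-04) and for hsp-16.41 (log2 fold change 6.95, SE 1.44, adjusted p = 0.0023). The authors' quantification merged both with 2 other genes, srt-42 among them, into 1 locus at chrV:1799725-1809467 of the ce10 build, so reads that fit more than 1 of the 4 are uncertain.

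hsp-70, the strictly inducible HSP70 gene C12C8.1, was at 2.34, 1.68 and 2.37 at 20 °C and 61.0, 58.2 and 74.8 CPM at 34 °C, and every heat-shocked library lay above every control library (log2 fold change 4.92, SE 0.24, adjusted p = 1.1e-08). In N2 the same gene went from 0.431 ± 0.142 to 1171 ± 229 CPM (mean ± SD, n = 3). In the transgene strain it went from 0.884 ± 0.344 to 674 ± 65.7 CPM. The mean of the heat-shocked mutant libraries was thus under the mean of either strain. Before heat shock its level ran the other way, with a mean of 2.13 CPM in the mutant against 0.431 CPM in N2. The authors' quantification placed hsp-70 in a locus of 2 genes at chrI:9317728-9327204, so reads that fit both are uncertain. For hsp-16.2, the N2 libraries went from 0.691 ± 0.688 to 3213 ± 156 CPM and the transgene strain from 7.38 ± 11.8 to 2329 ± 322 CPM. The plot of chaperone levels by library shows these distances on a log scale.

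**Figure D1:**
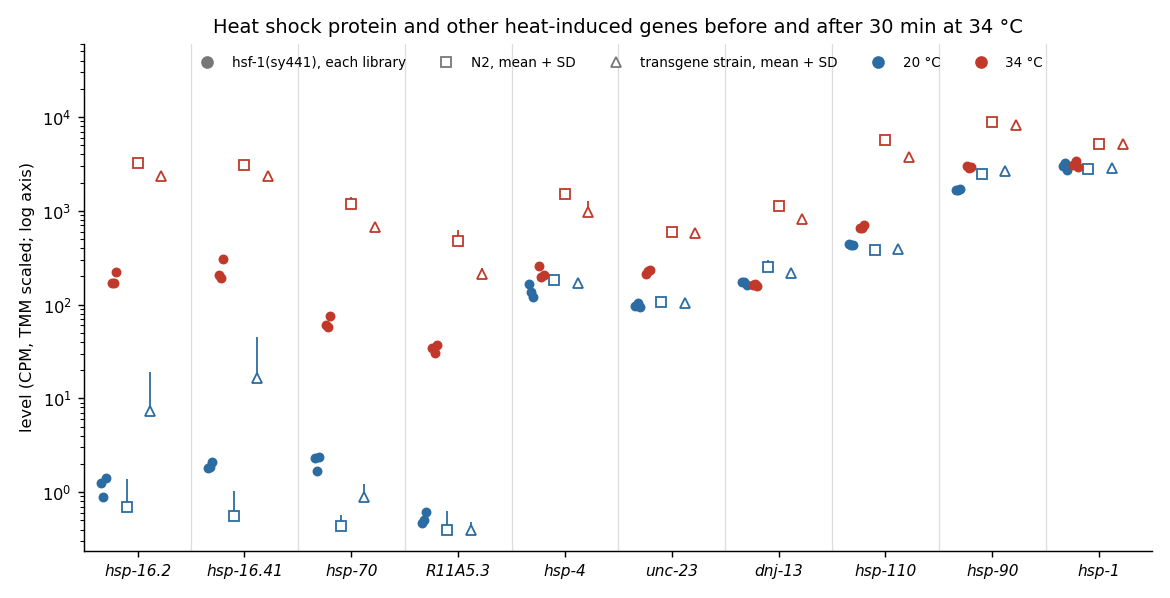
Level of 10 genes in CPM (log axis), 9 of them chaperones or co-chaperones and 1, R11A5.3, not. Dots are single hsf-1(sy441) libraries, squares and triangles the means of N2 and of the transgene strain with 1 SD drawn upward (n = 3), blue at 20 °C and red at 34 °C. The red mutant dots of hsp-70 lie between 58.2 and 74.8 CPM while the N2 mean at 34 °C is 1171 CPM, and blue and red mutant dots of dnj-13 and hsp-1 lie over each other.

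The second cluster of small heat shock genes, in which hsp-16.1 and hsp-16.11 as well as hsp-16.48 and hsp-16.49 are near-identical copies in an inverted repeat, gave few fragments. Of these, hsp-16.48 had 0 fragments in each control library and 1, 8 and 14 after heat shock, at least 9.69-fold higher against a floor of 3 fragments over the control group, and was called (adjusted p = 0.0032). Its copy hsp-16.49 had 0, 3 and 7 fragments after heat shock and 0 before, and did not pass the filter on low counts. Likewise hsp-16.11 had 3, 15 and 24 and hsp-16.1 had 0, 5 and 6 after heat shock and 0 before, with no test because the authors' estimate failed for both in an N2 library. Reads that fit both copies of a pair could have been split between them, so the level of each copy is uncertain. The HSP70 genes F44E5.4 and F44E5.5, which also are a near-identical pair, had 8 to 14 fragments in the control libraries and a failed estimate after heat shock. Of the 9 inducible genes in the list, 4 were tested and all 4 rose, in a set that passes the filter mainly through the heat-shocked libraries. DESeq2, run as an alternative, also called hsp-70 and hsp-16.48 and gave no adjusted p for hsp-16.2 and hsp-16.41.

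The constitutive cytosolic chaperones and co-chaperones moved far less. Of 17 tested, 8 rose and none fell, with a median log2 fold change of 0.26 that turned to −0.08 under scaling to total fragments, where 3 were higher and 5 lower. Without replicate 3 at 20 °C 5 rose, without replicate 1 at 34 °C 6 rose and 1 fell, and 1 also fell with the replicate block. The BAG-domain co-chaperone of HSP70, unc-23, was at 97.3, 105 and 94.8 at 20 °C and 213, 229 and 236.4 CPM at 34 °C and rose (log2 fold change 1.19, SE 0.10, adjusted p = 1.2e-06). The single cytosolic HSP90 of the worm, hsp-90, was at 1686, 1668 and 1690.2 at 20 °C and 3016, 2841 and 2899.7 CPM at 34 °C and rose by 0.80 (adjusted p = 7.1e-07). The nucleotide exchange factor hsp-110, a partner of HSP70, was at 438, 428 and 428 at 20 °C and 651, 648 and 698 CPM at 34 °C and rose by 0.63 (adjusted p = 2.3e-05). The libraries of the 2 temperatures did not overlap for these 3 genes, and each log2 fold change was under 1.2. Smaller rises were called for hip-1 (0.55), ahsa-1 (0.47), fkb-6 (0.37), cdc-37 (0.32) and dnj-19 (0.26), of which the last 4 were picked after their values were seen.

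Members without a call, also picked after their values were seen, included dnj-13 and the constitutive HSP70 hsp-1. The HSP40 dnj-13 was at 174, 174 and 161 at 20 °C and 161, 164 and 156 CPM at 34 °C with overlapping libraries (log2 fold change −0.08, SE 0.12, adjusted p = 0.65). The level of hsp-1 was 2983, 3223 and 2741 at 20 °C and 3065, 3407 and 2920.1 CPM at 34 °C (log2 fold change 0.07, SE 0.10, adjusted p = 0.65). In N2, by contrast, dnj-13 had a log2 fold change of 2.16 and hsp-1 of 0.91, and both differences between the strains were called (adjusted p = 2.4e-06 and 0.014).

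Other small heat shock proteins, which are not part of the hsp-16 clusters, gave 3 rises among 9 tested. A target of insulin signalling, hsp-12.6, was at 0.167, 0.127 and 0.182 at 20 °C and 1.73, 1.23 and 2.07 CPM at 34 °C and rose by 3.35 (adjusted p = 8.5e-04). Its relative hsp-12.3 was at 0.473, 0.411 and 0.304 at 20 °C and 1.97, 2.19 and 2.63 CPM at 34 °C and rose by 2.50 (adjusted p = 5.1e-05). The third riser, hsp-25, went from 163 ± 4.74 to 213 ± 2.53 CPM (log2 fold change 0.39, SE 0.14, adjusted p = 0.047), and that call was lost under 18 alternative settings. Of 4 tested genes of HSF-1 and its regulators, ddl-2, a component of an inhibitory complex on HSF-1, was at 11.2, 12.305 and 9.78 at 20 °C and 21.5, 19.1 and 19.2 CPM at 34 °C and rose (log2 fold change 0.85, SE 0.15, adjusted p = 4.7e-04), and the other 3 were not called. Under total fragments this list had 1 higher and 2 lower with a median of −0.32, against a median of 0.02.

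The folding machines of the cytosol and organelles showed small changes. Of 13 subunits of the CCT chaperonin and prefoldin, which fold actin and tubulin, 7 rose and none fell, among them cct-2 by 0.37 (adjusted p = 0.0081) and pfd-5 by 0.36 (adjusted p = 7.4e-04). That count was 1, 3, 4 or 2 without replicate 1 or 3 at 20 °C or replicate 1 or 2 at 34 °C, and its median of 0.23 turned to −0.11 under scaling to total fragments, with 0 higher and 2 lower. The mitochondrial chaperonin hsp-60 was at 622, 602 and 563 at 20 °C and 1031, 1019 and 907 CPM at 34 °C and rose without overlap (log2 fold change 0.73, SE 0.16, adjusted p = 0.0027), and the mitochondrial HSP70 hsp-6 rose by 0.27 (adjusted p = 0.045), a direction that turned to −0.07 under scaling to total fragments. They were the 2 risers among 11 tested mitochondrial chaperones and proteases (18.18%, against 15.8% of all genes called higher), none of which fell. Without any 1 of the 6 mutant libraries 1 of the 11 rose, without replicate 3 at 34 °C 1 fell, and 2 fell with the block. The median of the 11 was 0.08, and scaling to total fragments gave 1 higher and 4 lower with a median of −0.26.

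The endoplasmic reticulum list gave 2 rises (9.524%) and 3 falls (14.29%) among 21 tested, both under the 15.8% of all genes called in each direction. Its median was −0.14, and the block gave 5 falls. Scaling to total fragments gave 0 higher and 11 lower with a median of −0.47. Without replicate 2 or 3 at 20 °C or replicate 1 at 34 °C none rose, and without replicate 2 at 34 °C 1 did. The BiP chaperone hsp-4 of that compartment was at 164, 136 and 119.2 at 20 °C and 259.6, 195 and 209 CPM at 34 °C and rose (log2 fold change 0.66, SE 0.20, adjusted p = 0.019), a call lost without replicate 2 or 3 at 20 °C or replicate 1 at 34 °C. The calcium-binding lectin chaperone crt-1 rose by 0.57 (adjusted p = 0.027) and its membrane-bound relative cnx-1 fell by 0.30 on the log2 scale. The sensor ire-1, a kinase and endonuclease, was at 69.8, 63.1 and 64.7 at 20 °C and 47.7, 50.1 and 45.8 CPM at 34 °C and fell (log2 fold change −0.46, SE 0.07, adjusted p = 2.4e-04).

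For protein breakdown, 3 of 30 proteasome subunits rose (10%) and none fell, against 15.8% of all genes called in each direction. The 3 risers were pbs-1 by 0.94 (adjusted p = 0.025), pbs-5 by 0.53 (adjusted p = 0.038) and rpn-13 by 0.42 (adjusted p = 0.037). The replicate block raised that count to 15, and it was 6 without replicate 3 at 34 °C and 0 without any other of the 6 libraries. The subunits had a median of 0.26 that turned to −0.08 under total fragments, where none was called. Of 28 autophagy genes, 5 rose (17.86%, close to the share of all genes) and 1 fell (3.571%), with a median of 0.08. The block gave 9 and 5, and total fragments gave 2 higher and 12 lower with a median of −0.26. The rises numbered 3 without any 1 of the control libraries or replicate 3 at 34 °C. The lipid transfer protein atg-2 of the growing autophagosome was at 37.9, 38.0 and 35.8 at 20 °C and 64.5, 69.7 and 72.2 CPM at 34 °C, without overlap (log2 fold change 0.89, SE 0.15, adjusted p = 5.0e-04). The membrane protein atg-9 of the same step was at 21.1, 22.8 and 19.9 at 20 °C and 36.6, 37 and 40.3 CPM at 34 °C and rose as well (log2 fold change 0.84, SE 0.16, adjusted p = 0.0011). In N2 their log2 fold changes were 0.24 and 0.00, and neither difference between the strains was called (adjusted p = 0.23 and 0.13). The plot of called shares by gene list sets these groups beside the others.

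**Figure D2:**
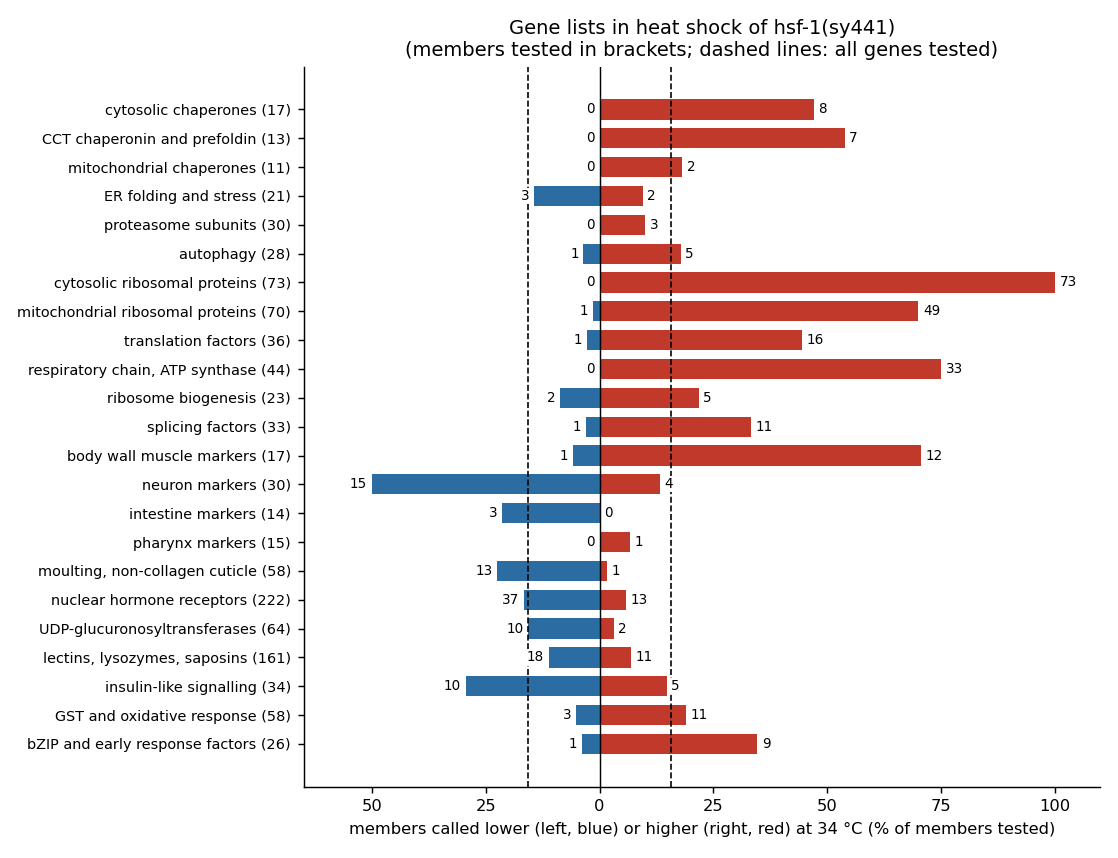
Percent of the tested members of 23 gene lists called higher (red, to the right) or lower (blue, to the left) after heat shock in hsf-1(sy441), with the number called at the end of each bar and the number tested in brackets. Dashed lines mark 15.8%, the share of all tested genes called in each direction. The ribosomal bar reaches all 73 tested genes, the neuron bar lies mainly to the left, and the proteasome bar stays under the dashed line.

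The largest changes are given among called genes with a mean of at least 10 CPM in the higher group and with no overlap between temperatures. The largest such rise, with the chaperones included, was that of dpy-17, a cuticle collagen needed for body shape, at chrIII:5107289-5108550. It was at 0.612, 0.569 and 0.486 at 20 °C and 143, 122 and 72.0 CPM at 34 °C, with replicate 3 the lowest of the heat-shocked libraries and far above the controls (log2 fold change 7.64, SE 0.36, adjusted p = 1.1e-08). A groundhog-like gene of the hedgehog-related family, grl-17 at chrV:13561987-13563901, was at 0.195, 0.0949 and 0.243 at 20 °C and 13.7, 11.7 and 7.76 CPM at 34 °C and had the same order among replicates (log2 fold change 5.90, SE 0.36, adjusted p = 6.5e-08). In the collagen and hedgehog-related lists these genes sat among members of which most were not called.

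R11A5.3 was at 0.473, 0.506 and 0.608 at 20 °C and 34.8, 30.6 and 36.6 CPM at 34 °C. R107.5 was at 31.2, 29.4 and 26.9 at 20 °C and 543, 484 and 497 CPM at 34 °C. Both rose, R11A5.3 by 5.99 (adjusted p = 1.9e-08) and R107.5 by 4.12 (adjusted p = 2.5e-09). C25F9.2 was at 0.974, 0.411 and 0.547 at 20 °C and 50.6, 43.7 and 55.2 CPM at 34 °C (log2 fold change 6.25, SE 0.70, adjusted p = 1.9e-05). ZC21.10 was at 0.306, 0.253 and 0.213 at 20 °C and 46.3, 45.1 and 37.2 CPM at 34 °C (log2 fold change 7.35, SE 0.38, adjusted p = 1.9e-08). The files and the reference give these 4 genes no further annotation. None of their control libraries overlapped a heat-shocked one, as the naming rule required. Another large rise was that of kreg-1, which was at 1, 0.538 and 0.638 at 20 °C and 29.97, 28.8 and 40.4 CPM at 34 °C and rose by 5.49 (adjusted p = 7.2e-07).

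Metabolic genes were among the large rises. The lipase gene fil-2, known for its induction by fasting, was at 0.223, 0.411 and 0.334 at 20 °C and 14.6, 13.8 and 25.6 CPM at 34 °C (log2 fold change 5.79, SE 0.45, adjusted p = 5.6e-07). The alcohol dehydrogenase gene adh-1 was at 11.4, 12.8 and 11.3 at 20 °C and 134, 91.1 and 183 CPM at 34 °C (log2 fold change 3.52, SE 0.68, adjusted p = 0.0013). For both genes replicate 3 at 34 °C was the highest library, and the groups did not overlap, as the naming rule required. In N2 the log2 fold changes were 3.55 for fil-2 and 1.54 for adh-1, and neither difference between the strains was called (adjusted p = 0.15 and 0.39). The remaining members of the 15 largest rises at this level were F46C5.1 (4.81), W07B8.4 (4.76) and Y43F8B.9 (3.48).

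The largest falls at this level were smaller in fold than the largest rises. The tetraspanin gene tsp-7 was at 20.5, 23.7 and 29.1 at 20 °C and 0, 0 and 1.5 CPM at 34 °C, which corresponds to 735, 748 and 959 fragments before and 0, 0 and 45 after heat shock. Its fitted log2 fold change of −5.50 (SE 0.97, adjusted p = 0.0019) lay between −12.14 and −4.90 when 1 library was left out, and −12.14 came without replicate 3 at 34 °C, the only heat-shocked library with fragments. The aspartyl protease gene asp-13 was at 205, 222 and 190.1 at 20 °C and 19.6, 26.5 and 26.1 CPM at 34 °C and fell (log2 fold change −3.09, SE 0.21, adjusted p = 1.7e-07). K06A4.7 was at 72.7, 69.7 and 76.7 at 20 °C and 6.6, 5.61 and 9.56 CPM at 34 °C and fell by 3.33 on the log2 scale (adjusted p = 1.0e-06).

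Several genes of signalling and of the neuronal membrane were among the 15 largest falls. The c-Jun N-terminal kinase gene jnk-1 was at 27.3, 25.6 and 29.7 at 20 °C and 4.68, 5.58 and 6.56 CPM at 34 °C (log2 fold change −2.29, SE 0.12, adjusted p = 1.9e-08). The nicotinic receptor subunit gene acr-15 was at 12, 11.4 and 10.9 at 20 °C and 2.76, 2.57 and 2.23 CPM at 34 °C (log2 fold change −2.18, SE 0.11, adjusted p = 1.1e-08). The Smad-family gene tag-68 was at 30.8, 28.3 and 29.3 at 20 °C and 6.26, 5.65 and 7.63 CPM at 34 °C (log2 fold change −2.18, SE 0.14, adjusted p = 1.4e-07). All 3 genes were lower in every heat-shocked library than in any control library, as the naming rule required.

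Transporter genes were in the same group, with the folate transporter folt-1 at 29.0, 23.8 and 27.6 at 20 °C and 7.39, 4.59 and 5.06 CPM at 34 °C (log2 fold change −2.24, SE 0.19, adjusted p = 1.1e-06). An organic anion transporter gene, oat-1, was at 36.9, 40.2 and 45.8 at 20 °C and 9.07, 6.40 and 11.7 CPM at 34 °C (log2 fold change −2.18, SE 0.39, adjusted p = 7.8e-04). The others were srlf-34 (−3.97), T11G6.3 (−2.61), lron-5 (−2.59), Y65A5A.1 (−2.48), iglr-1 (−2.45), the stomatin gene sto-6 (−2.32) and ZK1067.4 (−2.18). All 15 kept their call under every alternative setting, and the plot of the largest changes shows them by library.

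**Figure D3:**
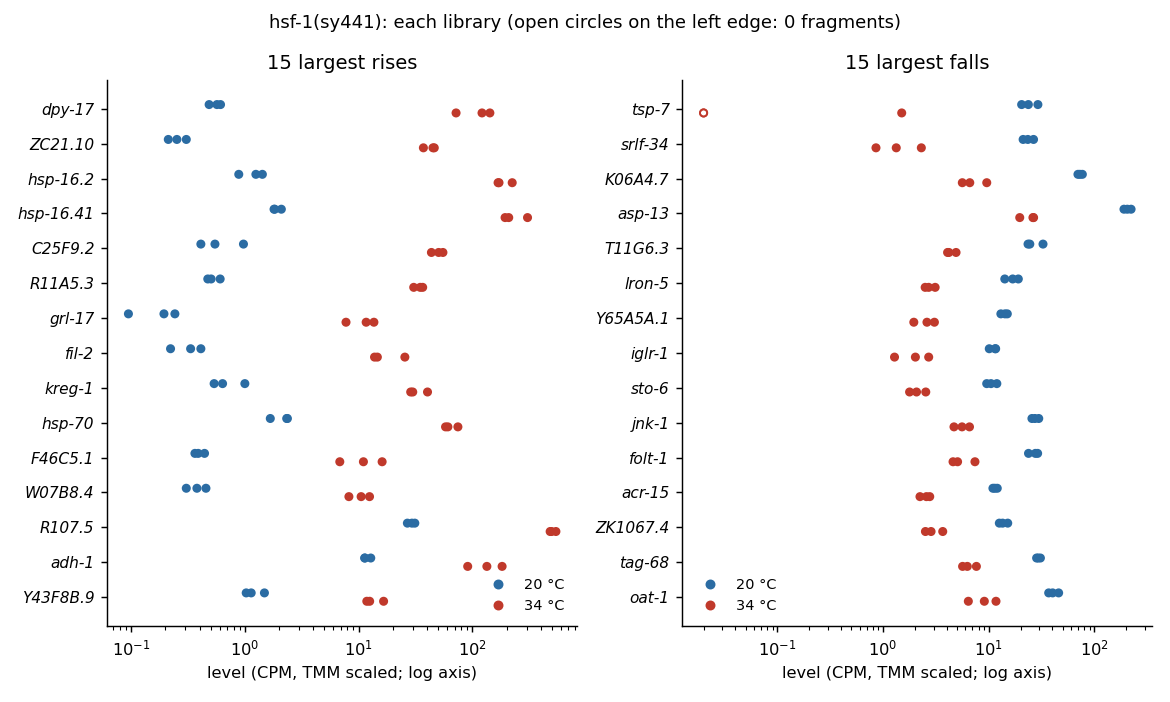
Levels in CPM (log axis) of the 15 genes with the largest called rise and the 15 with the largest called fall in hsf-1(sy441) among genes with at least 10 CPM in the higher group, 1 dot per library, blue at 20 °C and red at 34 °C, open circles for libraries with 0 fragments. The 2 colours do not overlap in any of the 30 genes, as the naming rule required, and the only open circles belong to tsp-7.

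Of the 8 called fallers with the highest FPKM, all but K06A4.7 changed less than the 15 largest falls. C17F4.7 went from 1404 ± 45.6 to 882 ± 107.8 CPM (log2 fold change −0.67, SE 0.10, adjusted p = 1.4e-04) and R06C1.4 from 647 ± 3.09 to 419 ± 76.8 CPM (log2 fold change −0.63, SE 0.14, adjusted p = 0.0030), each a mean ± SD of 3 libraries. With a smaller change, Y119D3B.21 (−0.37) and T24B8.3 (−0.36) lost their call in 4 and 3 alternative settings. K06A4.7, snu-13, elo-6 and elo-1, which are described with other groups, completed the 8.

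The 8 called risers with the highest FPKM, a level per transcript length, were all genes of ribosomal proteins, led by rpl-39 at a mean of 16772 FPKM at 20 °C and 26392 FPKM at 34 °C. All 73 tested cytosolic ribosomal protein genes of 80 rose, with a median log2 fold change of 0.90, and 70 remained called higher under scaling to total fragments. Their summed level was 133400.0, 134100.0 and 122400.0 CPM at 20 °C and 246400.0, 250300.0 and 227500.0 CPM at 34 °C, with no overlap between temperatures. The acidic stalk protein rplp-1 had the largest rise of the list and was at 965, 964 and 862 at 20 °C and 2975, 3561 and 3366 CPM at 34 °C (log2 fold change 1.83, SE 0.26, adjusted p = 1.2e-04). The small-subunit gene rps-29 was at 327, 404 and 325 at 20 °C and 817, 896 and 763 CPM at 34 °C (log2 fold change 1.23, SE 0.21, adjusted p = 4.8e-04). The same list rose by a median of 0.80 in N2 and 0.71 in the transgene strain, and the response of rpl-18A differed between the mutant and N2 by 0.88 (SE 0.17, adjusted p = 0.033). In a fit of the mutant libraries alone, 5 further ribosomal genes whose estimates failed in other strains also rose, rps-12 by 1.21, rpl-12 by 0.80, rpl-27A by 0.78, rpl-36A by 0.73 and rps-24 by 0.72 on the log2 scale.

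Nuclear genes for the mitochondrial respiratory chain and ATP synthase rose in 33 of 44 tested cases and fell in none, with a median of 0.40. Under scaling to total fragments the median was 0.06, with 10 higher and 3 lower. The cytochrome c oxidase subunit cox-6C was at 125, 144 and 119.9 at 20 °C and 286, 293 and 271 CPM at 34 °C (log2 fold change 1.13, SE 0.26, adjusted p = 0.0046). Another subunit of the same complex, cox-5A, was at 347, 373 and 352 at 20 °C and 738, 711 and 691 CPM at 34 °C (log2 fold change 1.00, SE 0.17, adjusted p = 3.9e-04). The NADH dehydrogenase subunit nuo-5 was at 237, 246 and 204 at 20 °C and 376, 413 and 344 CPM at 34 °C (log2 fold change 0.72, SE 0.17, adjusted p = 0.0042). For these 3 genes the temperatures did not overlap, whereas the log2 fold changes in N2 were 0.03, 0.22 and −0.03. None of the 3 differences between strains was called, with adjusted p-values of 0.24, 0.19 and 0.21. The 12 protein genes of the mitochondrial genome were listed at 0 fragments in every mutant library and were not tested.

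Of 70 mitochondrial ribosomal protein genes, 49 rose and 1 fell, with a median of 0.33 that was −0.01 under scaling to total fragments, where 3 were higher and 11 lower. The number of rises was 28, 29 and 25 without replicate 1, 2 or 3 at 20 °C. In the large subunit, mrpl-17 was at 32.7, 36.9 and 31.4 at 20 °C and 61.1, 59.0 and 57.2 CPM at 34 °C (log2 fold change 0.81, SE 0.13, adjusted p = 2.9e-04). The gene mrpl-37 was at 41.2, 42.1 and 37.4 at 20 °C and 71.4, 75.1 and 64.6 CPM at 34 °C (log2 fold change 0.81, SE 0.13, adjusted p = 2.2e-04). The counts of this list thus rest on small rises, while both named members kept their call under every alternative setting.

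Translation factors gave 16 rises and 1 fall among 36, with a median of 0.23 that turned to −0.11 under scaling to total fragments, where 5 were higher and 13 lower. The rises numbered 10 without replicate 3 at 20 °C, the fall was lost without replicate 2 at 20 °C or replicate 1 or 3 at 34 °C, and the block gave 2 falls. The elongation factor subunits led them, with eef-1B.1 at 895, 903 and 828 at 20 °C and 1697, 1556 and 1501 CPM at 34 °C (log2 fold change 0.86, SE 0.12, adjusted p = 1.0e-04). Another subunit, eef-1G, was at 2132, 2175 and 1981 at 20 °C and 3384, 3574 and 3007 CPM at 34 °C (log2 fold change 0.66, SE 0.10, adjusted p = 1.1e-04). The initiation factor subunit eif-3.B rose by 0.59 (adjusted p = 9.1e-05). Of 33 splicing factors, 11 rose and 1 fell, with a median of 0.17 that turned to −0.17, with 0 higher and 12 lower, under scaling to total fragments, with 2 falls under the block or without replicate 2 at 20 °C. The SR proteins rsp-3 (log2 fold change 0.76, adjusted p = 0.0097) and rsp-6 (log2 fold change 0.73, adjusted p = 0.0095) led the risers, followed by the Sm proteins snr-3 and snr-2. In contrast, snu-13, a protein of spliceosomal and nucleolar ribonucleoproteins, was at 495, 533 and 537 at 20 °C and 267, 299 and 286 CPM at 34 °C and fell (log2 fold change −0.88, SE 0.10, adjusted p = 1.1e-05).

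Genes of nucleolar ribosome assembly gave 5 rises (21.74%) and 2 falls (8.696%) among 23, against 15.8% of all genes called in each direction. Their median was 0.06, and the replicate block gave 4 falls. Scaling to total fragments gave 1 higher and 10 lower with a median of −0.27. The rises numbered 2 without replicate 1 or 2 at 20 °C. The repressor of nucleolar size and ribosome production ncl-1 was at 135, 125.8 and 116 at 20 °C and 295, 319 and 259 CPM at 34 °C and rose (log2 fold change 1.21, SE 0.25, adjusted p = 0.0017). The RNA polymerase I subunit rpoa-2 was at 139.7, 149 and 163 at 20 °C and 106, 111 and 113 CPM at 34 °C and fell (log2 fold change −0.45, SE 0.11, adjusted p = 0.0060). In N2 the log2 fold change of ncl-1 was 0.12, and the difference between the strains was not called (adjusted p = 0.21). The plot of list members by strain gives the spread within the cytosolic and mitochondrial ribosomal, translation factor, respiratory chain, muscle and neuron lists.

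**Figure D4:**
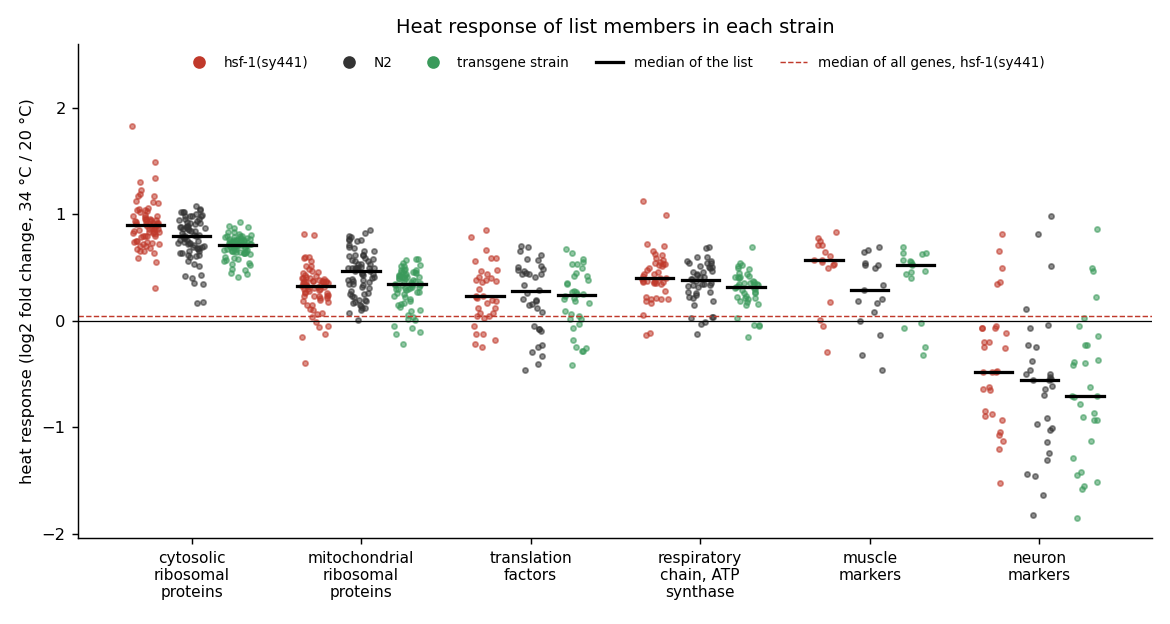
Log2 fold change after heat shock of each tested member of 6 gene lists in hsf-1(sy441) (red), N2 (black) and the transgene strain (green), with black bars at the medians and a red dashed line at 0.05, the median of all tested genes in the mutant. Ribosomal members lie above 0 in the mutant with a median of 0.90, the muscle median is 0.57, and the neuron median is −0.48 with members on both sides of 0.

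Most histone genes that could be tested rose. The libraries hold polyadenylated RNA, and most core histone mRNAs end without a poly(A) tail, so these values cover the polyadenylated share. Of 78 members, 35 passed the filter on low counts, and 24 rose and 1 fell, with a median of 1.64. The fall was lost without replicate 2 at 20 °C or replicate 1 or 3 at 34 °C. A gene with few fragments can pass that filter through the heat-shocked libraries alone, and the part of this in the count of rises was not tested. Among the 11 with a mean of at least 10 CPM over the 6 libraries, 8 rose and 1 fell, with a median of 0.68. The core histone gene his-41 was at 156, 138 and 131 at 20 °C and 612, 572 and 584 CPM at 34 °C (log2 fold change 2.06, SE 0.12, adjusted p = 5.1e-08). A further one, his-35, was at 106, 96.0 and 84.2 at 20 °C and 288, 272 and 280.1 CPM at 34 °C (log2 fold change 1.55, SE 0.12, adjusted p = 6.2e-07). The linker histone gene his-24 was at 78.1, 92.2 and 72.1 at 20 °C and 254, 254 and 249.9 CPM at 34 °C and rose (log2 fold change 1.64, SE 0.32, adjusted p = 0.0015), while in N2 it went from 121 ± 51.3 to 60.9 ± 14.9 CPM. The linker histone hil-5 was at 26.0, 24 and 23.2 at 20 °C and 59.7, 60.6 and 53.4 CPM at 34 °C and rose without overlap (log2 fold change 1.25, SE 0.11, adjusted p = 1.5e-06).

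Cuticle collagens spread widely between replicates. Of 179 members, 133 passed the filter on low counts, 20 rose and none fell. The share of rises, 15.04%, was close to the 15.8% of all genes called higher. The replicate block gave 55 rises and 4 falls, while 2 fell without replicate 3 at 34 °C. Of the 61 with a mean of at least 10 CPM over the 6 libraries, 3 rose and none fell. The summed level of the tested collagens was 8517, 7855 and 5986 CPM at 20 °C and 15540.0, 17410.0 and 11520.0 CPM at 34 °C, with replicate 3 the lowest at each temperature. The early collagen gene dpy-3 was at 219.6, 165 and 51.3 at 20 °C and 725, 803 and 152 CPM at 34 °C, and the control library of replicate 1 lay above the heat-shocked library of replicate 3 (log2 fold change 1.95, SE 0.62, adjusted p = 0.028). In the fit of the mutant libraries alone, col-42 was at 214.5, 242.1 and 182.0 CPM at 20 °C and 921, 833 and 960.4 CPM at 34 °C and rose by 2.09 on the log2 scale (adjusted p = 0.00013). The part of the moulting stage in these values was not tested.

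Genes for moulting and the apical matrix gave 1 rise and 13 falls among 58, with 11 rises and 19 falls under the replicate block, and of the 32 with a mean of at least 10 CPM none rose and 6 fell. The falls were led by cuticulin-like genes, whose products form the ridges and lining of the cuticle. Of these, cutl-9 was at 24.9, 18.6 and 16.44 at 20 °C and 6.80, 7.60 and 3.83 CPM at 34 °C (log2 fold change −1.72, SE 0.30, adjusted p = 5.0e-04). Its relative cutl-16 was at 17.4, 16 and 14.5 at 20 °C and 5.91, 4.59 and 4.10 CPM at 34 °C (log2 fold change −1.72, SE 0.23, adjusted p = 6.8e-05). Both cutl-15 and cutl-3 fell as well, and the temperatures did not overlap for any of the 4. Of 70 hedgehog-related and patched-related genes, 4 rose (5.714%) and 5 fell (7.143%), under the 15.8% of all genes called in each direction. The block gave 8 and 17, with 2 rises without replicate 1 at 20 °C. Total fragments gave 3 higher and 10 lower with a median of −0.45, from a median of −0.11. The patched-related gene ptr-5 was at 35.8, 33.4 and 32.6 at 20 °C and 12.7, 13.4 and 12.4 CPM at 34 °C (log2 fold change −1.40, SE 0.08, adjusted p = 2.6e-08). A second one, ptr-14, was at 117, 97.3 and 86.1 at 20 °C and 51.7, 47.6 and 38.3 CPM at 34 °C (log2 fold change −1.13, SE 0.29, adjusted p = 0.0085).

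Markers of tissues moved unequally. Of 30 tested neuron markers, 15 fell and 4 rose, with a median of −0.48, and 1 rose without replicate 3 at 20 °C, while total fragments gave 1 higher and 23 lower with a median of −0.81. The neuropeptide amidation enzyme pgal-1 was at 215, 197 and 200.1 at 20 °C and 74.7, 62.2 and 76.5 CPM at 34 °C (log2 fold change −1.52, SE 0.09, adjusted p = 4.5e-08). The synaptic vesicle GTPase rab-3 was at 77.9, 82.5 and 89.8 at 20 °C and 35.8, 32.3 and 40.2 CPM at 34 °C (log2 fold change −1.21, SE 0.10, adjusted p = 1.2e-06). The homeobox gene unc-86 was at 19.98, 19.7 and 19.1 at 20 °C and 10.6, 8.69 and 7.60 CPM at 34 °C (log2 fold change −1.13, SE 0.13, adjusted p = 1.8e-05). The pan-neuronal gene rgef-1 was at 19.4, 17.2 and 18.4 at 20 °C and 8.63, 7.15 and 10.4 CPM at 34 °C (log2 fold change −1.07, SE 0.16, adjusted p = 1.3e-04). Each of these 4 fell without overlap, and the log2 fold changes in N2 were −1.31, −1.24, −1.82 and −1.63, with no called difference between the strains for any of them (adjusted p of 0.55, 0.99, 0.13 and 0.32).

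Of 17 tested body wall muscle markers, 12 rose and 1 fell, with a median of 0.57, while 2 were higher and 2 lower under scaling to total fragments, with a median of 0.23. The troponin T gene mup-2 of the thin filament was at 785, 938 and 794 at 20 °C and 1421, 1628 and 1439 CPM at 34 °C (log2 fold change 0.83, SE 0.15, adjusted p = 8.0e-04). The paramyosin gene unc-15 of the thick filament was at 1743, 1943 and 1872 at 20 °C and 2811, 3431 and 3131 CPM at 34 °C (log2 fold change 0.75, SE 0.18, adjusted p = 0.0051). The troponin I gene unc-27 was at 672, 702 and 682 at 20 °C and 1109, 1215 and 1214 CPM at 34 °C (log2 fold change 0.78, SE 0.09, adjusted p = 2.0e-05). The temperatures did not overlap for these 3 genes. The summed level of the muscle list was 13880.0, 15150.0 and 14960.0 CPM at 20 °C and 20770.0, 22910.0 and 22950.0 CPM at 34 °C, and that of the neuron list 2759, 2664 and 2646 CPM at 20 °C and 2502, 2292 and 2389 CPM at 34 °C.

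Counts of markers of the other tissues stand against the 15.8% of all genes called in each direction. Of 14 intestine markers none rose and 3 fell, with a median of 0.13, and scaling to total fragments gave 0 higher and 4 lower with a median of −0.21. Among the 3 were pgp-1, an efflux transporter, at 126.3, 137 and 162 at 20 °C and 96.4, 94.3 and 83.8 CPM at 34 °C (log2 fold change −0.63, SE 0.16, adjusted p = 0.0064), and mtl-2, a metallothionein, which fell by 0.62 on the log2 scale. Of 13 hypodermis markers, 1 rose and none fell, while the block gave 4 rises and 1 fall and total fragments 0 higher and 2 lower. They had a summed level of 2138, 1648 and 1311 CPM at 20 °C and 3373, 4117 and 1660.0 CPM at 34 °C, in which replicate 3 was again the lowest at each temperature. The 1 of 15 pharynx markers that rose, mlc-1, which is a muscle myosin light chain as well (log2 fold change 0.61, adjusted p = 0.015), lost its call without replicate 1 at 20 °C or replicate 3 at 34 °C. The pharynx median of 0.07 turned under total fragments, which gave 0 higher and 2 lower with a median of −0.27, and the block gave 2 rises and 2 falls. Of 20 germline markers 4 rose and 2 fell, and the rises numbered 1 without replicate 2 or 3 at 20 °C and 2 without replicate 1 at 20 °C or replicate 2 or 3 at 34 °C, while 1 fell without any 1 of the 6 libraries. Their median was 0.19, and total fragments gave 0 higher and 5 lower with a median of −0.15. The RNA granule helicase cgh-1 was at 114, 109 and 101 at 20 °C and 61.1, 64.3 and 55.9 CPM at 34 °C (log2 fold change −0.84, SE 0.12, adjusted p = 1.3e-04). The 3 tested vitellogenins, yolk proteins of adult hermaphrodites, were not called and summed to at most 5.3 CPM in a library.

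Transcription factors and hormone-like peptides changed in both directions. Of 222 nuclear hormone receptor genes, 37 fell (16.67%) and 13 rose (5.856%), against 15.8% of all genes called in each direction. The share of falls was thus close to that of all genes. The replicate block gave 60 falls and 27 rises, with 8 rises without replicate 1 at 20 °C. Scaling to total fragments gave 5 higher and 89 lower with a median of −0.49, against a median of −0.15. The regulator of propionate breakdown nhr-68 was at 95.9, 93.0 and 92.5 at 20 °C and 51.5, 54.1 and 46.4 CPM at 34 °C (log2 fold change −0.89, SE 0.08, adjusted p = 3.0e-06). A receptor of the heterochronic pathway, nhr-85, was at 25.3, 25.8 and 23.4 at 20 °C and 60.2, 47.8 and 43.1 CPM at 34 °C (log2 fold change 1.02, SE 0.26, adjusted p = 0.0081). Of 26 bZIP and early response factors, 9 rose and 1 fell, with a median of 0.19, and under scaling to total fragments there were 2 higher and 6 lower with a median of −0.15. Among the risers, zip-10 was at 6.98, 3.86 and 6.59 at 20 °C and 29.1, 33.4 and 34.1 CPM at 34 °C (log2 fold change 2.47, SE 0.20, adjusted p = 6.5e-07). The C/EBP factor cebp-1 was at 15.2, 16.13 and 13.4 at 20 °C and 25.4, 26.5 and 29.2 CPM at 34 °C (log2 fold change 0.86, SE 0.20, adjusted p = 0.0038). The gene that fell was egrh-1, an early growth response homologue (log2 fold change −0.87, adjusted p = 0.0099).

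Of 34 tested insulin pathway genes, 5 rose (14.71%) and 10 fell (29.41%), against 15.8% of all genes called in each direction. The block gave 9 and 12, and total fragments gave 2 higher and 13 lower. The FOXO factor daf-16 of that pathway was at 194, 197 and 213 at 20 °C and 295, 293 and 303 CPM at 34 °C and rose without overlap (log2 fold change 0.56, SE 0.14, adjusted p = 0.0064). The insulin-like peptide ins-33 was at 23.1, 20.1 and 22.3 at 20 °C and 40.7, 33.5 and 47.7 CPM at 34 °C (log2 fold change 0.90, SE 0.24, adjusted p = 0.011), while ins-17 fell by 0.40 on the log2 scale (adjusted p = 0.0056).

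In lipid metabolism, 9 of 44 genes rose (20.45%) and 6 fell (13.64%), against 15.8% of all genes called in each direction. The block gave 13 and 13. Their median was 0.11, and total fragments gave 3 higher and 16 lower with a median of −0.23. Fatty acid elongases were among the falls, with elo-6 at 585, 644 and 687 at 20 °C and 329.7, 337 and 391.8 CPM at 34 °C (log2 fold change −0.86, SE 0.18, adjusted p = 0.0020). Next to it in fold, elo-5 was at 339, 405 and 441 at 20 °C and 172, 184 and 223 CPM at 34 °C (log2 fold change −1.04, SE 0.20, adjusted p = 0.0012). The desaturase fat-2 went the other way, at 1107, 1194 and 1261 at 20 °C and 1877, 1873 and 2111 CPM at 34 °C (log2 fold change 0.72, SE 0.14, adjusted p = 0.0012). The stearoyl-CoA desaturase fat-6 was at 551, 534 and 730.1 at 20 °C and 1232, 713 and 1555 CPM at 34 °C, with a wide spread after heat shock (log2 fold change 0.95, SE 0.22, adjusted p = 0.0040). Both elo-5 and elo-6 serve the synthesis of monomethyl branched-chain fatty acids. An elongase of polyunsaturated fatty acids, elo-1, fell by 0.44 on the log2 scale, a call lost in 11 alternative settings.

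Genes of detoxification were called in both directions. Of 64 UDP-glucuronosyltransferase genes, 10 fell and 2 rose, a lower share close to the 15.8% of all genes, and the block gave 23 and 5. The falls numbered 5 without replicate 3 at 20 °C or replicate 2 at 34 °C and 6 without replicate 1 at 34 °C. Among the falls, ugt-16 was at 98.8, 93.8 and 99.3 at 20 °C and 24.4, 31.5 and 20.2 CPM at 34 °C (log2 fold change −1.94, SE 0.21, adjusted p = 9.8e-06). A riser, ugt-14, went against the list, at 2.81, 2.12 and 2.70 at 20 °C and 21.4, 22.8 and 23.1 CPM at 34 °C (log2 fold change 3.14, SE 0.32, adjusted p = 5.8e-06). Of 67 cytochrome P450 genes 5 rose and 3 fell, with 9 and 11 under the block, and total fragments gave 1 higher and 11 lower with a median of −0.30, against a median of 0.04. Without 1 library as few as 1 rose (replicate 2 at 20 °C) and 1 fell (replicate 3 at 34 °C). Among them cyp-33A1 fell by 1.11 on the log2 scale. Of 58 glutathione S-transferase and oxidative response genes 11 rose and 3 fell, with 15 and 8 under the block and 6 and 1 without replicate 2 at 34 °C, and 7 rose without replicate 3 at 20 °C. Their median of 0.07 turned under total fragments, which gave 1 higher and 10 lower with a median of −0.27. The cytosolic peroxiredoxin prdx-2 was at 519, 485 and 452 at 20 °C and 842, 708 and 606 CPM at 34 °C (log2 fold change 0.57, SE 0.12, adjusted p = 0.0023), and the superoxide dismutase sod-1 rose by 0.45 (adjusted p = 0.0051).

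Defence and stress genes were called in both directions, beside 15.8% of all genes called in each direction. Of 33 epidermal antimicrobial peptide genes 4 rose and 1 fell, with 9 and 9 under the block and no fall without replicate 3 at 20 °C or replicate 1 or 2 at 34 °C. Their median was 0.26, and total fragments gave 3 higher and 1 lower with a median of −0.08. The peptide gene nlp-33 was at 109, 106.7 and 127 at 20 °C and 213, 211 and 355 CPM at 34 °C (log2 fold change 1.19, SE 0.36, adjusted p = 0.023), a call lost in 5 alternative settings. Of 161 lectin and lysozyme genes 11 rose and 18 fell, with 19 and 31 under the block, and 5 rose without replicate 3 at 20 °C and 7 without replicate 2 at 34 °C, while total fragments gave 2 higher and 41 lower. The lysozyme lys-2 was at 159.9, 149 and 163 at 20 °C and 70.1, 61.9 and 69.1 CPM at 34 °C (log2 fold change −1.23, SE 0.20, adjusted p = 3.7e-04). The infection response gene irg-3 was at 25, 25.9 and 24.5 at 20 °C and 7.69, 7.46 and 7 CPM at 34 °C (log2 fold change −1.77, SE 0.13, adjusted p = 5.3e-07). In the osmotic list 2 of 8 rose and 1, hmit-1.2, fell by 0.88 on the log2 scale, a fall lost without replicate 3 at 20 °C or replicate 2 or 3 at 34 °C, while 2 fell without replicate 1 at 20 °C or with the block. Under total fragments 1 was higher and 3 lower. The glycerol-3-phosphate dehydrogenase gene gpdh-1, of glycerol synthesis, was at 20.2, 27.6 and 26.6 at 20 °C and 46.9, 54.2 and 70.6 CPM at 34 °C (log2 fold change 1.21, SE 0.30, adjusted p = 0.0071). The secreted protein osm-11 of Notch and osmotic signalling was at 239, 232 and 225 at 20 °C and 854, 806 and 803 CPM at 34 °C (log2 fold change 1.82, SE 0.17, adjusted p = 3.0e-06).

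The remaining lists held few called genes, beside 15.8% of all genes called in each direction. Of 24 tested genes of the intracellular pathogen response 2 rose and 1 fell, with 1 rise without replicate 3 at either temperature, 4 rises with RLE scaling or DESeq2, 2 falls with DESeq2, and 4 rises and 3 falls with the block. Their median was 0.17, and total fragments gave 1 higher and 3 lower with a median of −0.16. The gene that fell, pals-25, was at 5.48, 5.25 and 5.62 at 20 °C and 2.22, 2.81 and 2.13 CPM at 34 °C (log2 fold change −1.19, SE 0.18, adjusted p = 1.4e-04). Of 20 aspartyl and cathepsin B proteases none rose and 2 fell, asp-13 and the cathepsin B gene cpr-8, at 15.8, 22.3 and 18 at 20 °C and 10.6, 12.8 and 11.9 CPM at 34 °C (log2 fold change −0.67, SE 0.20, adjusted p = 0.018), and the count was 1 without replicate 2 at 20 °C or replicate 1 at 34 °C and 4, beside 1 rise, with the block. That list's median of 0.08 turned under total fragments, which gave 0 higher and 3 lower with a median of −0.26. Of 26 genes of DNA replication and the cell cycle 1 rose and 1 fell, and the block gave 6 and 2. None rose without replicate 1 or 3 at 20 °C or replicate 2 at 34 °C, and 4 rose without replicate 3 at 34 °C. None fell without replicate 1 or 2 at 20 °C or replicate 1 or 3 at 34 °C. Their median was 0.13, and total fragments gave 0 higher and 5 lower with a median of −0.21. The replicative helicase subunit mcm-7 fell by 0.38 on the log2 scale, a call lost in 8 alternative settings. In the metal list 1 rose and 1, mtl-2, fell, with 2 and 3 under the block and 0 higher and 3 lower under total fragments. There the arsenite-inducible gene aip-1 was the 1 riser of 11 tested, at 21.6, 25.4 and 19.96 at 20 °C and 32.5, 34.7 and 36.3 CPM at 34 °C (log2 fold change 0.63, SE 0.13, adjusted p = 0.0025). Of 30 major sperm protein genes, 28 were too low to test, and the other pair, msp-50 and msp-57, both rose but stayed under 2 CPM in every mutant library. The gene msp-50 was at 0, 0.0316 and 0.0304 at 20 °C and 0.493, 0.548 and 0.466 CPM at 34 °C (adjusted p = 5.6e-04), and msp-57 was at 0, 0 and 0 at 20 °C and 1.77, 0.821 and 0.866 CPM at 34 °C (adjusted p = 0.0014). The temperatures did not overlap for either, and both passed the filter through the heat-shocked libraries. The family holds near-identical copies, so the level of each gene is uncertain.

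Most of the mutant's called genes were also called in the same direction in the other strains. Each strain was compared between its own temperatures, but within the same fit over the libraries of all strains. The calls share the filter, scaling and estimates of spread of that fit, so the overlap is not one of independent tests. In N2, 38.4% of genes were called, 18.6% higher and 19.8% lower. There 1563 of the mutant's 2247 rises were called too, 69.56% of the mutant's rises and 59.16% of those in N2. Of the mutant's 2246 falls 1859 were shared with N2, 82.77% of the mutant's and 66.04% of the other's. In the transgene strain, 34.1% of genes were called, 16% higher and 18.2% lower. With that strain, 1657 rises (73.74% of the mutant's and 72.93% of the other's) and 1950 falls (86.82% and 75.52%) were shared. Opposite calls were rare, at 15 of the mutant's rises and 5 of its falls against N2, and 0 and 1 against the transgene strain.

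The test of the difference itself called 70 genes between the mutant and N2, 43 with a lower response in the mutant (0.302% of genes) and 27 with a higher one (0.19%). The higher ones numbered 4 without replicate 3 of the mutant at 20 °C and 74 without replicate 3 of N2 at 34 °C, and the replicate block called 454 genes, 121 lower and 333 higher. Between the mutant and the transgene strain it called 28 genes, 26 lower (0.183%) and 2 higher (0.0141%), with 61 genes under the block, 35 lower and 26 higher. The gene hsp-70 had the largest lower response, with a log2 difference of −6.49 (SE 0.35, adjusted p = 6.0e-08) against N2 and −4.64 (SE 0.33, adjusted p = 2.7e-06) against the transgene strain. For the pair hsp-16.2 and hsp-16.41, the differences from N2 were −4.94 (SE 1.47, adjusted p = 0.19) and −5.54 (SE 1.84, adjusted p = 0.23) and were not called. For hsp-16.2 the N2 and transgene libraries spread widely around their low means at 20 °C, and far less relative to the mean at 34 °C.

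Of the 43 genes with a lower response than in N2, 24 still rose in the mutant, 7 fell and 12 were not called there. R11A5.3 rose in the mutant to a mean of 34 CPM against 471 CPM in N2, a difference in response of −4.26 (SE 0.45, adjusted p = 1.4e-04). R107.5 reached 508 CPM against 3267 CPM, a difference of −2.60 (SE 0.20, adjusted p = 4.3e-06). The SCAP homologue scp-1, named for a sterol-sensing protein, was at 56.3, 55.5 and 57.3 at 20 °C and 91.8, 91.2 and 97.7 CPM at 34 °C in the mutant and went from 55.2 ± 3.50 to 1376 ± 97.4 CPM in N2, a difference of −3.91 (SE 0.11, adjusted p = 2.4e-11). Its neighbour ttll-12, of the tubulin tyrosine ligase-like family, was at 97.5, 99.7 and 93.8 at 20 °C and 139, 136 and 124 CPM at 34 °C in the mutant and went from 114 ± 2.65 to 991 ± 97.1 CPM in N2, a difference of −2.66 (SE 0.11, adjusted p = 2.8e-09). Each of the 4 was called higher after heat shock in the mutant too, and each difference was also called against the transgene strain. The authors' quantification placed ttll-12 in a locus of 2 genes, so its level is uncertain.

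hsp-110 had a difference of −3.29 (SE 0.11, adjusted p = 1.2e-10) and bath-34, a gene with BTB and MATH domains, one of −3.31 (SE 0.36, adjusted p = 1.7e-04). The gene aip-1 had a difference of −2.25 (SE 0.19, adjusted p = 1.3e-05). The nucleosome remodelling factor subunit nurf-1, picked after its values were seen, was at 222, 212 and 191 at 20 °C and 1866, 1928 and 1384 CPM at 34 °C in the mutant with a difference from N2 of −1.87 (SE 0.20, adjusted p = 1.4e-04). The chaperone hsp-4 had a difference of −2.36 (SE 0.28, adjusted p = 4.7e-04) and dnj-13 one of −2.24 (SE 0.16, adjusted p = 2.4e-06). The autophagy receptor sqst-1, also picked after its values were seen, was at 87.0, 85.2 and 81.5 at 20 °C and 107.7, 117 and 114 CPM at 34 °C without a call in the mutant (adjusted p = 0.056), and its difference was −1.58 (SE 0.22, adjusted p = 0.0024). The plot of mutant against N2 responses shows these genes below the diagonal.

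**Figure D5:**
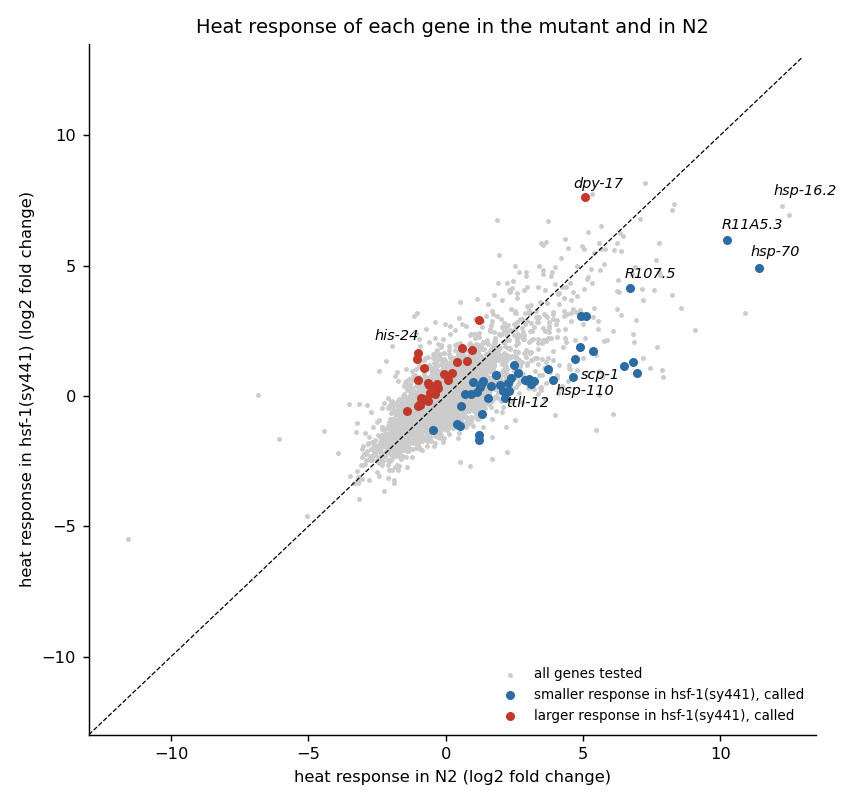
Log2 fold change after heat shock in N2 (x axis) and in hsf-1(sy441) (y axis) for the tested genes, with the 43 genes of a lower response in the mutant in blue, the 27 of a higher response in red and the dashed diagonal at equal response. Most genes lie in a cloud around the diagonal, and the blue points at the right, with hsp-70 at 11.41 in N2 and 4.92 in the mutant, lie far below it.

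The strongest risers of N2 were set beside the mutant's values as a description, with limits picked after the values were seen. In all, 28 genes rose at least 8-fold in N2 and reached 10 CPM there, and 26 of them rose in the mutant, 11 with a lower response by the test of the difference. Their median log2 fold change was 4.75 in N2, 3.07 in the mutant and 4.04 in the transgene strain. The genes were selected on their N2 values, which raises the N2 median, so these medians do not compare the strains. The 2 not called in the mutant were vit-2 and Y38H6C.8, which had at most 0.89 and 1.70 CPM in a mutant library. In 3 genes, dpy-17, kreg-1 and F15E6.3, the value was higher in the mutant. C13G3.1, at 9.41, 9.84 and 9.51 at 20 °C and 70.3, 67.6 and 115 CPM at 34 °C in the mutant, had similar values of 3.14 there and 3.59 in N2, with a difference of −0.45 (SE 0.36, adjusted p = 0.72).

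Higher responses in the mutant than in N2 were smaller and less steady. The linker histone his-24 had the largest, with a log2 difference of 2.64 (SE 0.45, adjusted p = 0.016), and dpy-17 the next, with 2.58 (SE 0.42, adjusted p = 0.0095). For osm-11 it was 1.22 (SE 0.24, adjusted p = 0.035). For the linker histone hil-3 it was 1.59 (SE 0.32, adjusted p = 0.041), and the mutant was at 36.3, 36.9 and 32.5 at 20 °C and 57.8, 53.7 and 48.3 CPM at 34 °C. F52G3.1 was at 212, 209.8 and 193 at 20 °C and 294, 311 and 270.1 CPM at 34 °C in the mutant and went from 115 ± 15.6 to 73.5 ± 12 CPM in N2, a difference of 1.16 (SE 0.17, adjusted p = 0.0030), and of the 8 largest differences of this kind it was the only one called under every alternative setting. Against the transgene strain none of these 5 differences was called, and the 2 called genes were rgs-6, which encodes an RGS protein, with 0.72 (SE 0.12, adjusted p = 0.016), and Y17G7B.21, with 0.62 (SE 0.10, adjusted p = 0.0073). Neither rgs-6 nor Y17G7B.21 was called in the mutant alone.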

How the data were processed

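Polyadenylated RNA of 18 libraries was sequenced, of which the 6 of hsf-1(sy441) are described here. TopHat2 and Cuffdiff with the ce10 build were used, per the submitters' processing notes, and no source used here gives their versions, options or annotation. The deposited read group table gives, per the file headers, each gene's expected count of fragments in each library and the authors' FPKM. The p-values of the authors' own Cuffdiff tests, in further deposited tables, were not used. Its replicate numbers start at 0 and were matched in order to those of the labels. Of the fragment values 92.43% were whole, and rounding changed no library total by more than 4e-05%. Of 20389 genes, 19879 (97.5%) were matched to a symbol. Those with a failed estimate in any library, 114 genes, 68 of them failing in a mutant library, held 6.11% to 6.76% of the mutant libraries' fragments and were left out. Genes that the authors' tool placed in a shared locus have uncertain values. No source used here gives the strand setting of the counting. Molecular identifiers are not mentioned, and floors cover counting error alone.

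Rounded counts were analysed in R 4.3.3 with edgeR 4.0.16 (filterByExpr, TMM factors of 0.85 to 1.24, robust quasi-likelihood fit with 1 mean for each of the 6 groups over all 18 libraries, biological coefficient of variation 25.3%). Levels are CPM with TMM factors. P-values were adjusted by the Benjamini-Hochberg method over the 14219 genes of each comparison and called at 0.05, and every adjusted p is from this test unless another fit is named. The heat response of the mutant was tested against that of each other strain by interaction terms. Alternatives were RLE scaling, total fragments, no filter, DESeq2 1.42.0, limma 3.58.1 on log2(FPKM + 0.1) and log2(FPKM + 1), the replicate block, the mutant libraries alone, and each library left out. Counts of list members without each mutant library were added after the data were seen. Same-numbered mutant libraries deviated together across temperatures, with correlations of 0.70, 0.33 and 0.89 over 9419 genes, so the numbers were taken as pairs under a limit of 0.1 for each. Replicate 1 at 20 °C also correlated at 0.74 with replicate 2 at 34 °C, so these numbers do not tell replicates 1 and 2 apart. The reported fit has no block, and the block is an alternative.

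The named genes were hsf-1, unc-119, the 15 largest rises and 15 largest falls and the 8 risers and 8 fallers of highest FPKM without overlap between temperatures, the inducible heat shock proteins, up to 4 members of each list, and the 8 largest differences in each direction between strains, mostly with at least 10 CPM in the higher group. The members, lists and rule were chosen with earlier results of these data known. The fit was tested on simulated data.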

Additional observations from a re-analysis of the deposited data

Results flagged for a closer look

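The 18 genes listed here had the largest differences in heat response between hsf-1(sy441) and another strain, by a test of the difference itself. They are up to 8 genes in each direction and strain, and they were named because they were called. Further named genes, such as hsp-4 and aip-1, also had called differences. Lower than in N2 on the log2 scale were hsp-70 (−6.49), R11A5.3 (−4.26), scp-1 (−3.91), srt-42 (−3.65), bath-34 (−3.31), hsp-110 (−3.29), ttll-12 (−2.66) and R107.5 (−2.60). The same 8 genes were lower than in the transgene strain, by values of −4.64 for hsp-70, −3.08 for R11A5.3, −3.31 for scp-1, −2.87 for srt-42, −2.36 for bath-34, −2.64 for hsp-110, −2.23 for ttll-12 and −2.38 for R107.5. These calls held under every alternative run. The srt-42 gene shares its locus with hsp-16.2 and hsp-16.41, and the part of that shared locus in its value was not tested.

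Higher in the mutant than in N2 were his-24 (2.64), dpy-17 (2.58), F58G1.7 (1.86), hil-3 (1.59), osm-11 (1.22), F52G3.1 (1.16), toe-4 (1.03) and Y50D4C.5 (0.89). dpy-17 lost this call without replicate 3 of the mutant at 20 °C, and his-24, F58G1.7, hil-3, osm-11, toe-4 and Y50D4C.5 lost it under more alternatives. Higher than in the transgene strain were rgs-6 (0.72) and Y17G7B.21 (0.62), and both calls were lost under several alternatives. For rgs-6 the mutant libraries were at 33.3, 30.8 and 32.8 at 20 °C and 29.2, 29.5 and 31.8 CPM at 34 °C.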

How the results depend on the processing

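For heat shock in the mutant, 2247 genes were called higher and 2246 lower. Scaling to total fragments gave 655 higher and 4823 lower, and the replicate block gave 3403 higher. Leaving out 1 of the 18 libraries gave 3420 to 4813 calls, 1477 to 2414 higher and 1832 to 2406 lower, with 1477 without replicate 3 at 20 °C. Other settings stayed within 1.5 times, at 3466 calls by limma on log2(FPKM + 0.1) and 5319 by DESeq2.

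For the difference from N2, DESeq2 called 397 genes (1.66% of genes higher and 1.13% lower in the mutant) and the replicate block 454 (2.34% and 0.851%), against 70 (0.19% and 0.302%) in the fit reported. Limma called 0.0422% higher with log2(FPKM + 0.1) and 0.0844% with log2(FPKM + 1). Leaving out 1 library gave 39 to 156 calls, 0.0278% to 0.512% higher and 0.222% to 0.567% lower, with 39 without replicate 1 of the mutant at 20 °C and 156 without replicate 3 of N2 at 34 °C. For the difference from the transgene strain, DESeq2 called 69 (0.113% higher, 0.373% lower), the block 61 (0.183% higher), and total fragments and limma on log2(FPKM + 0.1) 0% higher. Leaving out 1 library gave 25 to 33 calls, 0 to 0.0208% higher and 0.159% to 0.215% lower. The cause of these shifts was not tested.

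Of 172 named genes 167 were called, 103 under every alternative, and 64 lost the call under at least 1. Under total fragments the log2 fold change turned to −0.066 for cct-1, −0.075 for cct-7, −0.071 for hsp-6 and −0.24 for Y17G7B.21. Beyond the counts given with the results, the block changed no list count by over 1.5 times for the chaperone, ribosomal, respiratory chain, mitochondrial ribosomal, muscle and neuron rises. Failed estimates and merged loci limit the inducible HSP70 and hsp-16 genes, and low counts limit histones and collagens.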
